A study of Mus musculus with 24 samples.

Results

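The regulators described here are 10 genes that set or hold the brown fat fate: the zinc finger regulator Prdm16, the early B cell factors Ebf1, Ebf2 and Ebf3, the zinc finger factor Zfp516, the histone methyltransferase Ehmt1, the corepressors Ctbp1 and Ctbp2, the interferon regulatory factor Irf4 and the coregulator Tle3. They were chosen by symbol, 10 of the 52089 symbols in the deposited table, and each was read from 1 RefSeq transcript, the NM entry with the highest mean level over all libraries. The cells were primary brite adipocytes, white fat cells pushed towards the heat-producing brown type. Preadipocytes came from the stromal-vascular fraction of inguinal white adipose tissue (WAT) of 129SvEv mice, were induced over 2 days, at sub-confluence per the labels, and were then differentiated for 1 day with rosiglitazone, a PPARγ agonist. Reverse transfection then gave them 50 nM of an LNA gapmer, an antisense oligonucleotide that leads RNase H to its target RNA, directed at the long noncoding RNA Ctcflos (KD), or of a nontargeting control (NC). RNA was taken at 24 h or at 72 h after transfection.

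With KD and NC at both times there were 4 groups of 6 libraries, which all shared the strain, the fat depot, the culture protocol and exposure to a gapmer. NC 72 h replicates 2 and 3 differed by less than the sampling noise. They count here as 1 sample, which leaves n = 5 in that group. The study calls its replicates biological, but the labels do not say whether they were separate cultures, and p-values measure the spread between these samples, which may be technical. The model has limits of its own: the cultures were mixed primary cells kept in vitro, only 1 gapmer against Ctcflos was used in these libraries, and the reads came from the 3′ ends of transcripts. The libraries held 1391826 to 5926358 mapped reads (median 4009983). The lowest was KD 24 h replicate 6, and the highest, NC 72 h replicate 6, may have been 2963179. Ctcflos itself ranged from 0.178 to 1.38 RPKM (reads scaled by transcript length and library total), with a median of 0.73, in NC 24 h, and from 0 to 0.62, with a median of 0.0923, in KD 24 h. At 72 h it ranged from 0.886 to 1.75, with a median of 0.971, in NC and from 0 to 0.517, with a median of 0.215, in KD. The libraries were also split by their deviations from the group means into 2 clusters, a number set in advance. The clusters held 16 and 8 libraries, and each group gave 2 libraries to the smaller. Between libraries of different groups, the mean correlation of deviations was 0.09 within a cluster and -0.11 across clusters. The clusters were formed from these same correlations, so the gap is built in and is no evidence that the split is real. Values within the larger and the smaller cluster, in that order, are given beside the pooled ones, except for the interaction of knockdown and time.

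In brown and brite adipocytes, EBF factors bind the regulatory elements of fat genes and recruit PPARγ and Prdm16 to those of the thermogenic programme. Prdm16 acts in both directions. With activators it holds brown fat genes on, and with corepressors such as Ctbp1 or Ctbp2 it silences white fat and muscle genes. Ehmt1 works in the Prdm16 complex. Zfp516 and Irf4 are cold-inducible activators of Ucp1 that work through Prdm16 or Ppargc1a, whereas Tle3 opposes Prdm16 and favours the white programme.

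Adipocyte markers dominated the cultures. The summed level of 8 adipocyte markers, among them Adipoq and Fabp4, lay between 45700 and 49300 RPKM in NC 24 h, 34200 and 53600 in KD 24 h, 32900 and 42500 in NC 72 h, and 25800 and 38800 in KD 72 h. Of these 8 markers, 4 were lower in KD at 24 h and 5 at 72 h, among them Adipoq (-0.55 and -0.96 on the log2 scale). Of all entries tested, 11.8% were lower and 10.8% higher in KD at 24 h, and 12% and 10.3% at 72 h. Stromal progenitor markers were present too, at 370 to 994 RPKM in sum. At 24 h 0 of the 6 tested passed, and at 72 h 2 of 5 were higher in KD (Cd34 by 2.02 and Pdgfrb by 0.59 on the log2 scale), while Dpp4 and Pi16 had under 3 reads per library on average. At 24 h 0 of the stromal markers reached an unadjusted p under 0.05 in limma, and 0 of 5 passed with limma-voom. Endothelial markers summed to 0.192 to 3.31 RPKM with 0 of 5 testable, and Emcn, Kdr and Tek averaged under 3 reads. The 5 macrophage markers in the table summed to 2.74 to 28 RPKM, with Itgam and Ptprc under 3 reads on average. Among them Csf1r was higher in KD at both times (1.22 and 1.23 on the log2 scale) and Lyz2 lower at 72 h (-3.68). Of the 6 mesothelial and epithelial markers only Krt19 was testable: the sum of the list lay between 17.9 and 25.2 RPKM in NC 24 h, 22.9 and 75 in KD 24 h, 17.8 and 25.8 in NC 72 h, and 119 and 171 in KD 72 h, while Krt8 and Msln averaged under 3 reads. Krt19 was higher in KD by 1.05 and 2.54 on the log2 scale. In bulk samples, fewer cells of a type and less RNA per cell cannot be told apart. The part of these markers in the results below was not tested.

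Per transcript length, the mean levels in NC 24 h ran from 25.7 RPKM for Ebf1 to 0.144 for Irf4. The order by mean RPKM there was Ebf1, Ctbp1, Ebf2, Ctbp2, Ehmt1, Tle3, Prdm16, Zfp516, Ebf3 and Irf4. The reads come from 3′ ends, so division by transcript length sets part of this order: by reads in NC 24 h, Ehmt1 (471) and Tle3 (444) stood above Ctbp2 (362). Neighbours in the order by RPKM had separate ranges only between Ctbp1 and Ebf2, between Tle3 and Prdm16 and between Ebf3 and Irf4. In KD 24 h Ctbp1 stood first, with a range that lay above that of Ebf1. The order at 72 h was Ebf1, Ctbp1, Ebf2, Ctbp2, Ehmt1, Tle3, Ebf3, Zfp516, Prdm16 and Irf4 in NC, and Ctbp1, Ebf1, Ctbp2, Tle3, Ebf2, Ehmt1, Zfp516, Ebf3, Prdm16 and Irf4 in KD.

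**Figure D1:**
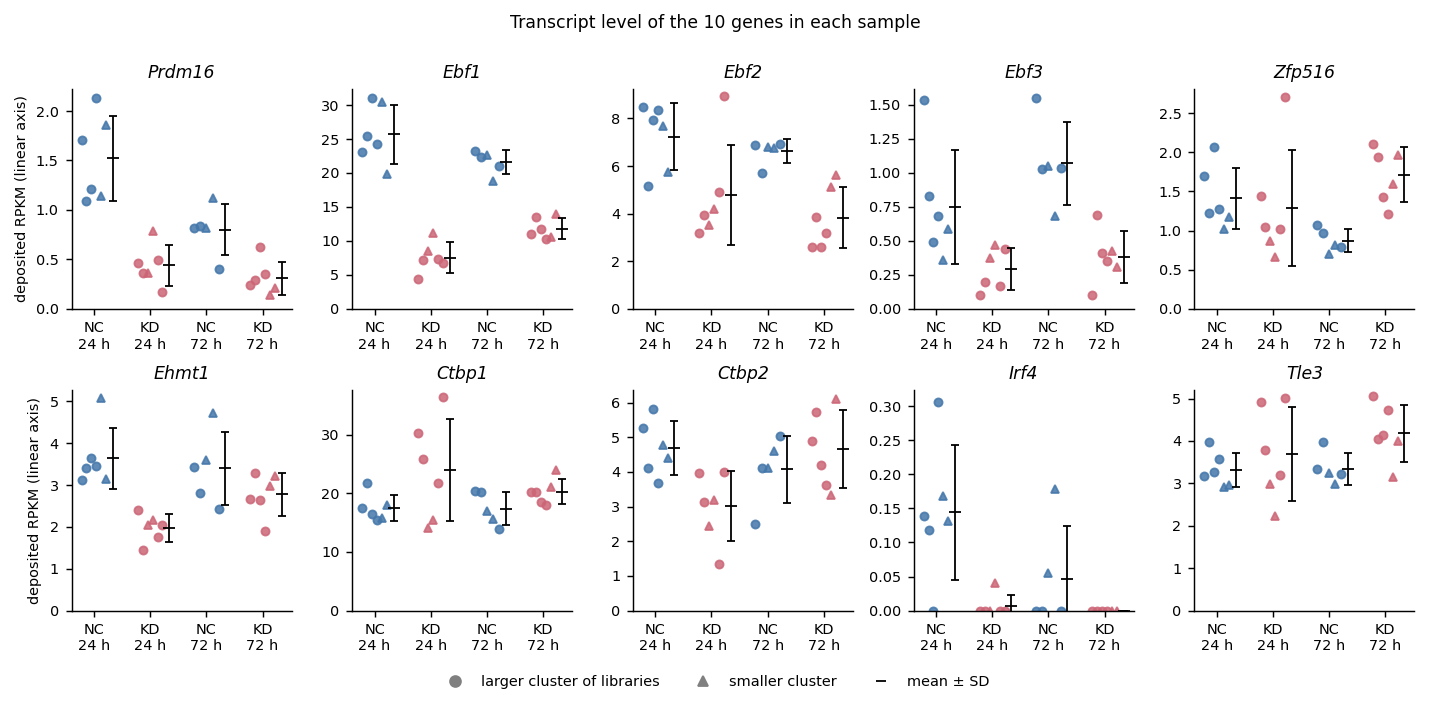
Deposited RPKM of each of the 10 genes by sample, on a linear axis of its own for each gene that starts at 0, in NC 24 h, KD 24 h, NC 72 h and KD 72 h. Circles are samples of the larger cluster and triangles of the smaller one, and bars are mean ± SD (cut off at 0 for Irf4). The KD samples of Prdm16, Ebf1 and Ehmt1 lie below every NC sample at 24 h, as do those of Ebf1 and Ebf2 at 72 h, and the KD samples of Zfp516 lie above every NC sample at 72 h. Of all entries tested, 5.86% lie below in this way at 24 h and 3.06% at 72 h, and 14.1% lie above at 72 h.

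The comparison of KD with NC asks what the knockdown of Ctcflos, which left some of it in place, does to the fate regulators of differentiating brite cells. At 24 h, 8 of the 10 genes could be tested, and Prdm16, Ebf1, Ebf2, Ehmt1 and Ctbp2 were lower in KD, to between 0.276 and 0.611 of the NC level. Zfp516, Ctbp1 and Tle3 did not pass the test. At 72 h, 9 genes could be tested: Prdm16, Ebf1, Ebf2 and Ebf3 were lower, to between 0.34 and 0.473 of the NC level, and Zfp516 was higher, at 1.58 of the NC level. A call here is an adjusted p under 0.05 in limma after Benjamini-Hochberg correction over all entries tested, on log2(scaled RPKM + 0.1), a scale that understates the change of low genes. Thus 5 of 8 genes were lower at 24 h, where 11.8% of all 52006 entries tested were called lower and 10.8% higher. At 72 h 4 of 9 were lower and 1 higher, where 12% of 54447 entries were called lower and 10.3% higher. Without the scaling between libraries, 80.9% of the calls at 72 h were higher, against 46.4% with it, so the differences at 72 h are relative to a shift of 0.25 in the median of all entries on the log2 scale. Ranges and medians of the genes below are in deposited RPKM, whereas log2 differences and levels relative to NC come from the scaled values. The median log2 difference over the tested genes was -0.73 at 24 h and -0.51 at 72 h. These counts carry a limit, because Prdm16 and Ebf3 entered the 72 h test mainly through NC: 2 of 6 KD and 5 of 5 NC samples reached the required level for Prdm16, and 1 of 6 KD and 5 of 5 NC samples for Ebf3.

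Prdm16, the switch gene of the brown fat fate, was read from NM_001177995 (chr4:154316125-154636873 on the minus strand of GRCm38, the build of all positions here). In NC 24 h its 6 samples ranged from 1.09 to 2.13 RPKM with a median of 1.46, and in KD 24 h from 0.17 to 0.791 with a median of 0.413. Every KD sample lay below every NC sample at this time, as was the case for 5.86% of all entries tested, while 5.26% had every KD sample above. The level was 0.311 of NC (log2 difference -1.68 ± 0.31 SE, limma adjusted p = 0.0023). Within the larger cluster the difference was -1.89, and within the smaller one it was -1.28. At 72 h NC gave 0.816, 0.836 (the mean of replicates 2 and 3), 0.821, 1.12 and 0.4 RPKM, and KD ranged from 0.142 to 0.623 with a median of 0.267. The ranges overlapped through NC replicate 6 at 0.4. The level was 0.389 of NC (-1.36 ± 0.34 SE, adjusted p = 0.012), with -0.89 in the larger and -2.21 in the smaller cluster. These are low counts, since the transcript held 27.2 reads per library on average, and its reads added up to 328 in NC 24 h, 100 in KD 24 h and 60 in KD 72 h.

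Prdm16 makes messages that end in different reading frames, depending on whether the second-last of its exons is kept. The exon is shown because it is the main difference between the long and short messages in the annotation: exon 16 of 17, 175 bases in GRCm38 at chr4:154322271-154322445 on the minus strand, from the GENCODE M21 transcripts. Capitals mark the exon, and the lower-case letters on either side are the adjoining exons.
Prdm16 exon 16: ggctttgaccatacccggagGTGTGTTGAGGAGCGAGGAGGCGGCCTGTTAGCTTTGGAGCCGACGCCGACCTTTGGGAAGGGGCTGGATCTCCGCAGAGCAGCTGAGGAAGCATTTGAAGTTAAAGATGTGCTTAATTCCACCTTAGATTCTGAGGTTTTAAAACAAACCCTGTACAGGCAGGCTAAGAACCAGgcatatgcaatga
The entries with the exon (NM_027504 and ENSMUST00000105638) and those without it (NM_001177995 and ENSMUST00000070313) had equal recovered read numbers in 24 of 24 libraries, 652 reads each. Within each pair the lengths differ by 172 bases, not 175, so the pairs also differ outside the exon. In no library did the counts tell the exon apart, and the balance of the long and short message was not measurable here. All 7 Prdm16 entries that could be tested were lower at 24 h and at 72 h, with the same difference at each time, so they are 1 measurement and not 7. Under the filter, AK081985, AK153563, AK017846 and AK083829 went the other way at 72 h, on few reads. Their reads in NC and KD were 5 and 15, 3 and 15, 0 and 8, and 1 and 8. Entry AK081578 was lower in KD 72 h (0.042 and 0 RPKM), and the remaining Prdm16 entries held no reads.

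Ebf1, the most abundant of the EBF factors in these cells and a binding partner of PPARγ at fat genes, was read from NM_007897 (chr11:44617317-45008091, plus strand). It ranged from 19.9 to 31.1 RPKM with a median of 24.8 in NC 24 h, and from 4.36 to 11.2 with a median of 7.27 in KD 24 h. The groups did not overlap, as for 5.86% of entries with KD below NC at 24 h. The level was 0.276 of NC (-1.85 ± 0.22 SE, limma adjusted p = 0.00013). NC gave 23.3, 22.3, 22.7, 18.8 and 21.0 RPKM at 72 h and KD ranged from 10.3 to 14 with a median of 11.3. The groups were again apart, as at 72 h for 3.06% of entries with KD below NC, and the level was 0.46 of NC (-1.12 ± 0.12 SE, adjusted p = 3.1e-05). Within the larger and the smaller cluster the difference was -2.12 and -1.32 at 24 h, and -1.14 and -1.10 at 72 h. Of 17 Ebf1 entries tested at 24 h 16 were lower, and of 16 at 72 h 14 were lower. Entries of a gene can count the same reads, so these are not separate measurements. Several Ebf1 entries had a higher mean level than NM_007897, and the highest was the GenBank entry AK141021, of 473 bases. AK141021 gave smaller differences, -0.78 at 24 h (adjusted p = 0.0089) and -0.79 at 72 h (adjusted p = 0.067, which did not pass).

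Ebf2, the EBF factor that marks brown and brite precursors, was read from NM_010095 (chr14:67233292-67430918, plus strand). It ranged from 5.18 to 8.5 RPKM with a median of 7.81 in NC 24 h, and from 3.21 to 8.94 with a median of 4.08 in KD 24 h. KD replicate 6, at 8.94, lay above every NC sample, and the other 5 KD samples reached at most 4.89. Replicate 6 was the shallowest library, at 1391826 mapped reads, with 54 reads of Ebf2. The same library gave the highest KD 24 h values of Ctbp1, Ctbp2, Zfp516 and Tle3, and the lowest of Prdm16. The Ebf2 level was 0.611 of NC (-0.71 ± 0.23 SE, limma adjusted p = 0.038). This call is lost without the scaling (-0.65, adjusted p = 0.064), without the filter (-0.72, adjusted p = 0.065) and in 8 of 12 fits that leave out a sample. The difference in those 12 fits ran from -0.87 to -0.6. The NC samples at 72 h were at 6.89, 5.72, 6.8, 6.76 and 6.92 RPKM, and KD ranged from 2.59 to 5.61 with a median of 3.52. There the groups did not overlap, as for 3.06% of entries with KD below NC at 72 h. The level was 0.473 of NC (-1.08 ± 0.2 SE, adjusted p = 0.0017). Within the larger and the smaller cluster the difference was -0.69 and -0.75 at 24 h, and -1.28 and -0.67 at 72 h. An annotated antisense gene, Gm10860, shares 424 of the 6928 exonic bases of Ebf2. Strand handling was not stated, so reads of this pair cannot be told apart there.

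Ebf3, a further member of the EBF family, was read from NM_010096 (chr7:137193673-137314445, minus strand) at a mean of 12.1 reads per library. At 24 h it was under the filter, and was compared by an exact permutation test of the mean RPKM. It ranged from 0.363 to 1.54 with a median of 0.638 in NC 24 h, and from 0.106 to 0.468 with a median of 0.283 in KD 24 h. The ranges overlapped, and the means were 0.749 and 0.292 RPKM (two-sided exact permutation p = 0.011, 0.045 after correction over 6 such comparisons). The call is lost in 11 of 12 tests that leave out a sample and from the highest-mean Ebf3 entry (adjusted p = 0.052), and without NC 24 h replicate 1 the difference in means was -0.3 RPKM in place of -0.458. In the larger cluster the means were 0.886 in NC and 0.227 in KD, and in the smaller one 0.477 and 0.42. At 72 h NC gave 1.55, 1.03, 1.05, 0.686 and 1.04 RPKM and KD ranged from 0.105 to 0.687 with a median of 0.381. The ranges touched through NC replicate 5 at 0.686, and the level was 0.34 of NC (-1.56 ± 0.34 SE, limma adjusted p = 0.0051). Within the clusters the difference at 72 h was -1.72 and -1.31.

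**Figure D2:**
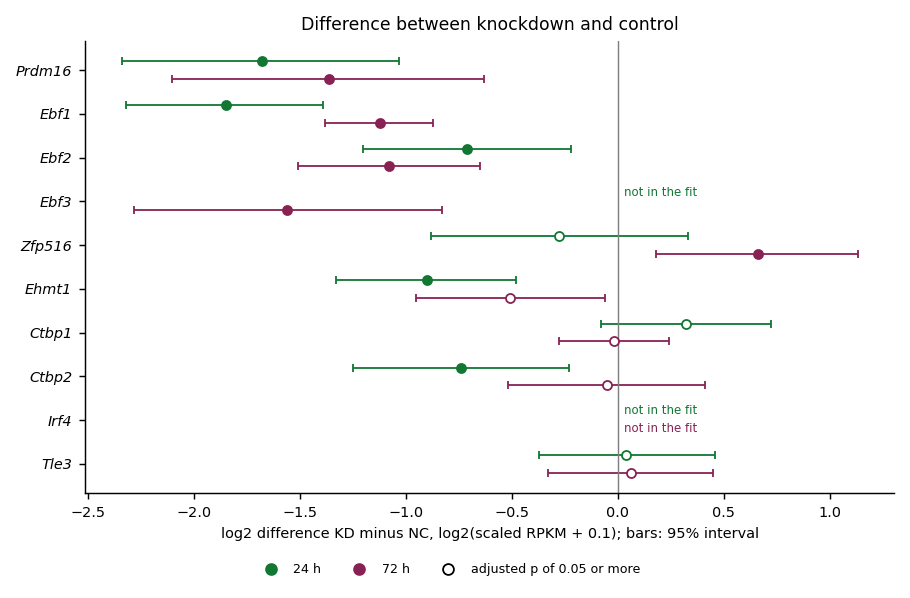
Log2 difference of KD against NC for each gene at 24 h and at 72 h, from limma on log2(scaled RPKM + 0.1). Points are estimates, bars are 95% confidence intervals, a filled point marks an adjusted p under 0.05, and genes under the filter are marked as not in the fit. Prdm16, Ebf1 and Ebf2 are filled below 0 at both times, Ehmt1 and Ctbp2 at 24 h, Ebf3 at 72 h, and Zfp516 is filled above 0 at 72 h.

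Ehmt1, the methyltransferase of histone H3 lysine 9 that works in the Prdm16 complex, was read from NM_001109686 (chr2:24789928-24919614, minus strand). It ranged from 3.12 to 5.08 RPKM with a median of 3.43 in NC 24 h, and from 1.45 to 2.41 with a median of 2.05 in KD 24 h. The groups did not overlap, as for 5.86% of entries with KD below NC at 24 h. The level was 0.534 of NC (-0.9 ± 0.2 SE, limma adjusted p = 0.0059), with -0.92 and -0.88 within the clusters. All 12 Ehmt1 entries tested were lower at this time. Entries of a gene share reads: the entry read here and another RefSeq entry had equal reads in 23 of 24 libraries. They are therefore not 12 separate measurements. At 72 h NC gave 3.42, 2.81, 3.59, 4.73 and 2.43 RPKM and KD ranged from 1.9 to 3.29 with a median of 2.82. These ranges overlapped, and the difference of -0.51 did not pass (95% confidence interval -0.95 to -0.06, adjusted p = 0.094), with -0.35 and -0.73 within the clusters. Whether the effect differed between the times was tested separately and did not pass (difference of the effects 0.4, limma adjusted p = 0.6).

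Ctbp1 and Ctbp2, the paired corepressors through which Prdm16 silences white fat genes, differed in their calls at 24 h, though the difference between them was not tested. Ctbp1 (NM_001198859, chr5:33247723-33274994, minus strand) ranged from 15.4 to 21.7 RPKM with a median of 17 in NC 24 h, and from 14 to 36.5 with a median of 23.8 in KD 24 h. The KD samples spread on both sides of the NC range, and the difference of 0.32 did not pass (95% confidence interval -0.08 to 0.72, adjusted p = 0.22). It was 0.57 in the larger cluster and -0.18 in the smaller one. Ctbp2 (NM_009980, chr7:132987563-133124354, minus strand) ranged from 3.69 to 5.81 RPKM with a median of 4.6 in NC 24 h, and from 1.35 to 4.01 with a median of 3.16 in KD 24 h. The ranges overlapped only slightly, and the level was 0.599 of NC (-0.74 ± 0.24 SE, limma adjusted p = 0.038), with -0.77 and -0.68 within the clusters. This call is lost without the scaling (-0.68, adjusted p = 0.065), without the filter (-0.75, adjusted p = 0.073) and in 8 of 12 fits that leave out a sample. It is also read differently by entry: 3 of the 11 Ctbp2 entries tested were lower at 24 h, from -0.74 to -0.32 over all of them, and the gene shares 314 of its 6220 exonic bases with Fgfr2.

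At 72 h Ctbp1 was 20.5, 20.2, 16.9, 15.6 and 14.0 RPKM in NC and ranged from 18 to 24 with a median of 20.2 in KD. Ctbp2 was 2.48, 4.11, 4.13, 4.61 and 5.04 RPKM in NC and ranged from 3.34 to 6.11 with a median of 4.55 in KD. Both pairs of ranges overlapped, and neither difference passed. It was -0.02 for Ctbp1 (95% confidence interval -0.28 to 0.24) and -0.05 for Ctbp2 (-0.52 to 0.41), and both signs turn without the scaling (0.23 and 0.19). Within the clusters it was -0.11 and 0.13 for Ctbp1, and 0.08 and -0.28 for Ctbp2. Per sample, the ratio of Ctbp1 to Ctbp2 ranged from 2.82 to 5.27 in NC 24 h and from 4.84 to 16.1 in KD 24 h. At 72 h it ranged from 2.77 to 8.24 in NC and from 3.55 to 6.31 in KD.

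**Figure D3:**
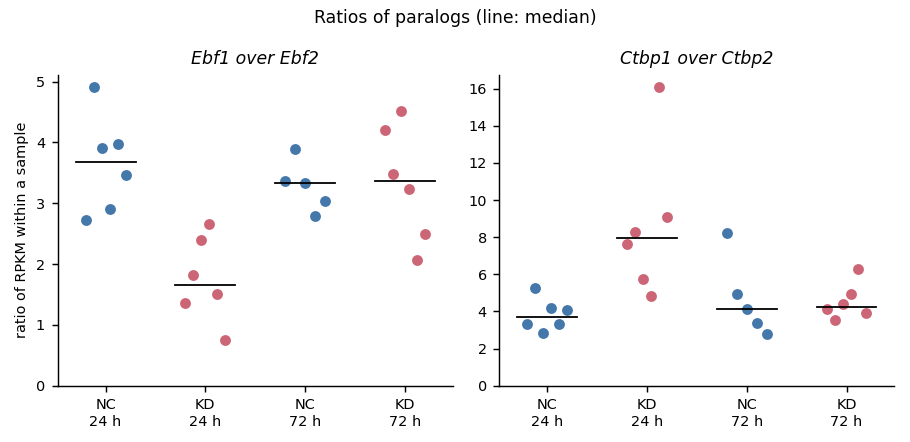
Ratio of deposited RPKM within each sample, Ebf1 over Ebf2 and Ctbp1 over Ctbp2, on linear axes that start at 0, by group. Points are samples and lines are medians. The Ebf1 to Ebf2 ratio lies between 2.72 and 4.91 in NC 24 h and between 0.751 and 2.66 in KD 24 h, whereas the 72 h groups overlap for both ratios.

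Within the EBF family, the ratio of Ebf1 to Ebf2 had a median of 3.69 in NC 24 h and 1.66 in KD 24 h, without overlap, and medians of 3.34 in NC and 3.36 in KD at 72 h. These ratios are a description, with no test.

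Zfp516, an activator of Ucp1 that binds Prdm16, was read from NM_001177464. It ranged from 1.02 to 2.06 RPKM with a median of 1.25 in NC 24 h, and from 0.668 to 2.7 with a median of 1.03 in KD 24 h. The KD range enclosed the NC range, and the difference of -0.28 did not pass (95% confidence interval -0.88 to 0.33, limma adjusted p = 0.5), with -0.18 and -0.46 within the clusters. At 72 h NC gave 1.07, 0.971, 0.699, 0.817 and 0.789 RPKM and KD ranged from 1.21 to 2.11 with a median of 1.77. Every KD sample lay above every NC sample, as was so for 14.1% of all entries tested at 72 h. These ranges are in deposited RPKM (means 1.71 in KD and 0.87 in NC). They come before the scaling, when the median of all entries stood 0.25 higher in KD on the log2 scale. The level was 1.58 of NC (0.66 ± 0.22 SE, adjusted p = 0.046), with 0.55 and 0.81 within the clusters. All 3 Zfp516 entries tested were higher, but entries of a gene can count the same reads, so these are not 3 separate measurements. The call is lost without the filter (0.66, adjusted p = 0.18), with the cluster as a covariate (0.65, adjusted p = 0.051) and in 9 of 12 fits that leave out a sample. The direction is opposite to that of the other 4 genes that passed at 72 h.

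Irf4, which with Ppargc1a drives Ucp1 in cold, was nearly silent in NM_013674 (chr13:30749226-30766976, plus strand). In NC 24 h it ranged from 0 to 0.306 RPKM with a median of 0.136, from 18 reads in all and with 1 library at 0. In KD 24 h a single read was found in 6 libraries, in replicate 4. The means were 0.144 and 0.00678 RPKM (two-sided exact permutation p = 0.015, 0.045 after correction over 6 comparisons), and the call is lost in 11 of 12 tests that leave out a sample and from the highest-mean Irf4 entry (adjusted p = 0.18). Within the clusters the means were 0.141 and 0.15 in NC, and 0 and 0.0204 in KD. At 72 h NC gave 0, 0, 0.0548, 0.179 and 0 RPKM, and KD held 0 reads in 6 libraries, which allows up to 3 reads over the group (exact permutation p = 0.36). A difference was not detectable at this depth.

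Tle3, the coregulator that opposes Prdm16, was read from NM_001083928 (chr9:61372366-61418497, plus strand) and passed in no comparison. It ranged from 2.91 to 3.98 RPKM with a median of 3.22 in NC 24 h, and from 2.22 to 5.02 with a median of 3.5 in KD 24 h. The NC values at 72 h were 3.34, 3.98, 3.24, 2.97 and 3.21 RPKM and KD ranged from 3.14 to 5.05 with a median of 4.08. The ranges overlapped at both times. The difference was 0.04 at 24 h (95% confidence interval -0.37 to 0.46) and 0.06 at 72 h (-0.33 to 0.45), and neither passed, so changes within these intervals remain possible. Within the clusters it was 0.15 and -0.17 at 24 h, and 0.14 and -0.14 at 72 h.

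**Figure D4:**
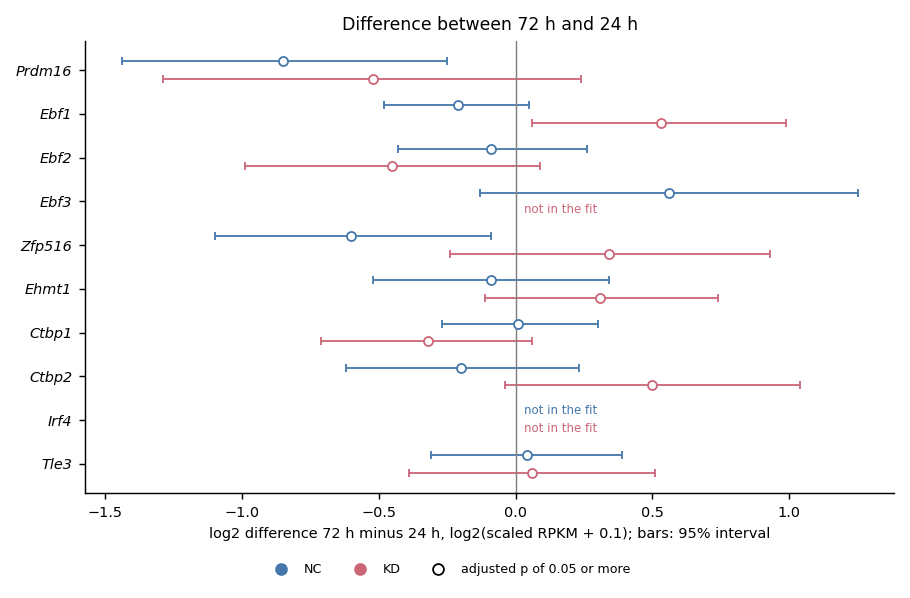
Log2 difference of 72 h against 24 h for each gene, in NC and in KD, from limma on log2(scaled RPKM + 0.1). Points are estimates, bars are 95% confidence intervals, and open points mark an adjusted p of 0.05 or more. No point passes an adjusted p of 0.05 in either arm.

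The comparison over time asks how the regulators move as the cells differentiate, with the control gapmer and with knockdown of Ctcflos. No member passed in either arm: 0 of 9 in NC, where 9.14% of 52836 entries were called (4.54% higher), and 0 of 8 in KD, where 9.77% of 53199 were called (5.11% higher). No member had separate ranges at the 2 times, as 4.26% of entries in NC and 1.3% in KD had with every 72 h sample below, and 3.12% and 6.98% with every one above. At an unadjusted p under 0.05 there were 2 in NC (Prdm16 and Zfp516) and 1 in KD (Ebf1). Fitted with limma-voom on the recovered reads, 1 passed in NC (Prdm16) and 0 in KD. In NC, Prdm16 also passed with the filter at 30 reads (-0.84, adjusted p = 0.033) and with 24 libraries kept separate (-0.83, adjusted p = 0.044), and Ebf1 (-0.66, adjusted p = 0.012) and Zfp516 (-0.78, adjusted p = 0.022) passed from their highest-mean entries. In NC, Prdm16 was at -0.85 ± 0.28 SE (limma adjusted p = 0.075), Zfp516 at -0.6 ± 0.24 (adjusted p = 0.14) and Ebf3 at 0.56 ± 0.32 (adjusted p = 0.33). In KD, Ebf1 was at 0.53 ± 0.22 (adjusted p = 0.15), Ctbp2 at 0.5 ± 0.25 (adjusted p = 0.24), Prdm16 at -0.52 ± 0.36 (adjusted p = 0.39) and Ebf2 at -0.45 ± 0.26 (adjusted p = 0.29). The Ebf1 value in KD turns to a call without the scaling (0.69, adjusted p = 0.038) and without KD 24 h replicate 4 (0.67, adjusted p = 0.045), and turns sign from the highest-mean entry (-0.66, adjusted p = 0.18). Within the clusters the differences in NC were -1.03 and -0.57 for Prdm16, -0.61 and -0.5 for Zfp516, and 0.52 and 0.74 for Ebf3. In KD the clusters stood apart: the differences were -0.03 and -1.5 for Prdm16, 0.81 and -0.05 for Ebf1, -0.72 and 0.1 for Ebf2, 0.59 and 0.31 for Ctbp2, and -0.6 and 0.24 for Ctbp1. The other within-cluster differences lay between -0.27 and 0.07 in NC and between 0.04 and 0.78 in KD. Ebf3 in KD had mean levels of 0.292 and 0.381 RPKM (exact permutation p = 0.39).

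An interaction term over all 4 groups compared the effect of the gapmer at 72 h with that at 24 h. By limma 0 of 9 genes passed, where 0.187% of 59413 entries were called, 0.113% with a higher value at 72 h. At an unadjusted p under 0.05 there were 3, Ebf1, Zfp516 and Ctbp2, and with limma-voom 0 passed. The difference between the effects was 0.73 ± 0.26 SE for Ebf1 (adjusted p = 0.24), 0.93 ± 0.36 for Zfp516 (adjusted p = 0.3) and 0.68 ± 0.33 for Ctbp2 (adjusted p = 0.42). For Prdm16 it was 0.33 (adjusted p = 0.82). A gene called at 1 time and not at the other is therefore not shown to differ between the times.

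The neighbours of these genes in the same complexes were counted as well. Of 11 other PRDM and EBF family genes, 4 could be tested and 0 passed in limma at either time, with Prdm15 at 1.11 (adjusted p = 0.074) the nearest at 24 h. At an unadjusted p under 0.05 there were 1 at 24 h and 0 at 72 h, and limma-voom called 1 higher at 24 h and 0 at 72 h. Of 13 other coregulators tested at 24 h, 1 was higher, Kdm1a, the histone demethylase LSD1 that joins Prdm16 (0.88 ± 0.25 SE, adjusted p = 0.023), where 10.8% of all entries were called higher. At an unadjusted p under 0.05 there were 7 of the 13 at 24 h and 6 of 12 at 72 h. Limma-voom called 2 higher and 2 lower at 24 h, and 2 higher and 1 lower at 72 h. At 72 h Kdm1a was higher again (0.60 ± 0.18 SE, adjusted p = 0.028), and 1 of the 12 tested was lower, Zfp423, a repressor of thermogenic genes that binds Ebf2 (-0.78 ± 0.25 SE, adjusted p = 0.038). Ehmt2, the partner of Ehmt1 in methylating histone H3, had 0.71 at 24 h (adjusted p = 0.067) and 0.47 at 72 h (adjusted p = 0.13), and did not pass.

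Of 9 thermogenic target genes tested, 6 were lower at 24 h and 9 at 72 h, with a median of -0.73 and -1.47. Ucp1, the uncoupling protein that makes heat, was at -1.16 ± 0.24 SE and -2.37 ± 0.21 SE (limma adjusted p = 0.0046 and 8.9e-06). In NC it rose by 2.48 from 24 h to 72 h, and in KD by 1.28, and the difference between these did not pass (-1.21 ± 0.35 SE, adjusted p = 0.15). Of 6 tested genes that Prdm16 complexes are known to hold down in brown fat cells, 3 were lower in KD at 24 h (Mest, Nnmt and Agt) and 3 at 72 h (Retn, Agt and Acta1), and 0 were higher at either time. Agt, the angiotensinogen gene, was at -0.5 and -1.19. The share of all entries called lower was 11.8% and 12%, and the lists were not tested as sets.

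Patterns across samples were described without a test. Over 23 samples and 12710 symbols, where the groups themselves contribute to the correlation of log2 levels, the symbols most like Prdm16 were AK038192, the collagen chaperone Serpinh1 and the glycerol channel Aqp7, each at a Pearson r of 0.89. Most like Ebf1 were Tnrc6c at 0.96, and Nfib and Dock1 at 0.94 each. Most like Ebf2 was Gm10860, its antisense neighbour, at 0.96, followed by Aplp2 and Rtn3 at 0.88. Gm10860 shares exonic bases with Ebf2, so the same reads may count for both.

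The genomic span of the genes moved with the result. In GRCm38 Prdm16 extends over 320.7 kb, Ebf1 over 390.8 kb, Ebf2 over 197.6 kb, Ctbp2 over 136.8 kb, Ehmt1 over 129.7 kb and Ebf3 over 120.8 kb. The other 4 are shorter: Zfp516 covers 94.7 kb, Tle3 46.1 kb, Ctbp1 27.3 kb and Irf4 17.8 kb. All 5 tested genes over 100 kb were lower at 24 h and 4 of 6 at 72 h, and of 3 tested under 100 kb 0 were lower at either time. In the whole table, 34.2% of the 6318 entries over 100 kb were lower at 24 h, against 10.4% between 20 and 100 kb and 6.63% under 20 kb. At 72 h the shares were 24.8%, 9.53% and 9.97%. The median log2 difference of entries over 100 kb was -0.49 at 24 h and -0.3 at 72 h, and the genes named above lay at -0.71 to -1.85 at 24 h. The part of span in the result was not tested.

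**Figure D5:**
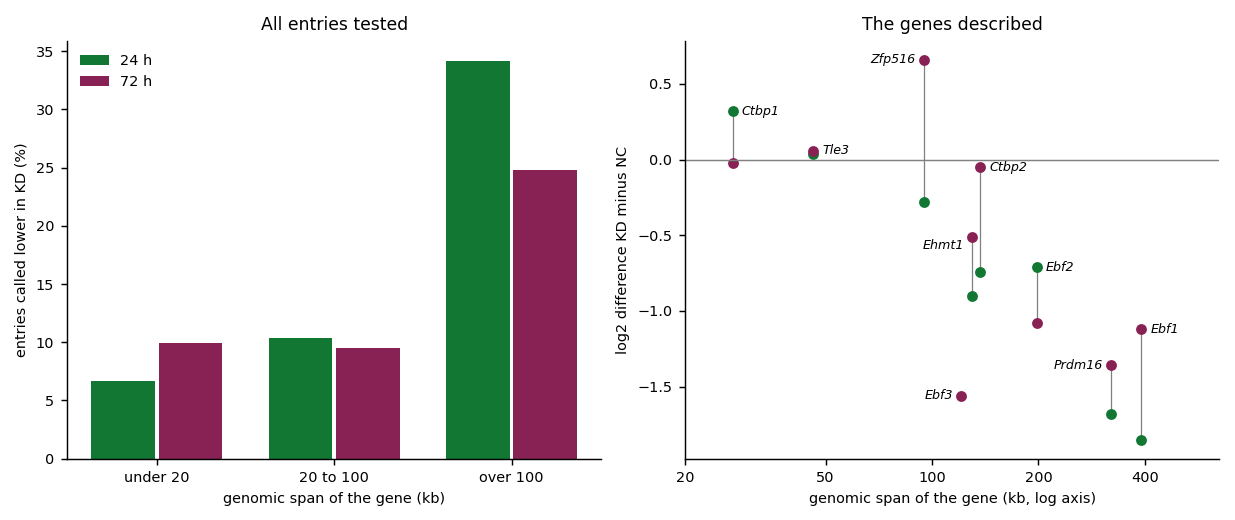
Left, percent of all entries tested that were called lower in KD, by genomic span of the gene in kb, at 24 h (green) and 72 h (purple). Right, log2 difference of KD minus NC against genomic span in kb on a log axis for each gene tested, with a line joining the times. The share called lower is highest in spans over 100 kb (34.2% and 24.8%), and the points of genes over 100 kb lie below 0, with Ctbp2 at -0.05 at 72 h and Ebf3 shown at 72 h only.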

How the data were processed

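Bulk 3′ RNA-seq (BRB-seq) was measured in 24 libraries. The authors mapped reads with the Genomatix suite and deposited RPKM, reads scaled by transcript length and library total, for 168326 transcript entries; version, build and strand handling are not given in the sources used here. In the deposited file, 0 columns held values of other samples.

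The 10 genes, the lists and the tests were chosen with earlier results of these data known. All 10 genes are named in every comparison, and at most 4 per list, by smallest adjusted p or a known tie to a member. Whole reads and library totals were recovered from the RPKM steps, with 95.1% to 95.6% of low values whole within 0.1. The 95% confidence intervals come from limma and cover the spread between samples. The upper limit on Irf4 reads covers counting error only. Totals set the precision: 10 reads are worth 0.296 RPKM for Prdm16 in the median library. NC 72 h replicates 2 and 3 differed by 0.34 of counting noise, the next of 276 pairs by 2.01, and were averaged. In NC 72 h replicate 6, odd values made up 14.9% of the read numbers up to 20 (54.2% to 56.0% elsewhere), so its depth may be 2963179. It was kept.

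Entries with 15 reads in total that reached 10 in the median library, in a number of samples equal to the smaller group, were scaled by a trimmed mean of log ratios (30% and 5%). log2(scaled RPKM + 0.1) was fitted with limma 3.58.1 (R 4.3.3) over the whole table, after tests on simulated data. At 72 h the scaling moved the median by 0.25 on the log2 scale. Genes under the filter were compared by exact permutation tests. Gene positions are from GENCODE M21 (GRCm38). Clusters of libraries were formed from deviations of 8851 genes, without the 10 described. Alternatives changed scaling, filter, pseudocount, entry choice, library averaging, tool, cluster and replicate block, and left out each sample.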

Additional observations from a re-analysis of the deposited data

Results flagged for a closer look

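Of 39 gene and group combinations checked, 4 held a sample set apart from the rest of its group, where chance flags about 1 in 20 groups (1.9 in all). Ebf2 in KD 24 h replicate 6 was at 8.94 RPKM, next to 4.89 in the nearest of the other samples. Ebf2 in NC 72 h was lowest in the mean of replicates 2 and 3, at 5.72 RPKM, against 6.76 for the next. Ehmt1 in NC 24 h replicate 5 was at 5.08 RPKM, against 3.65 for the next, and this library belongs to the smaller cluster. Irf4 in KD 24 h replicate 4 was at 0.0407 RPKM, from 1 read, and the other samples were at 0.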

How the results depend on the processing

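Calls of Prdm16, Ebf1 and Ehmt1 at 24 h and of Ebf2 and Ebf3 at 72 h held under every alternative tested. At 72 h Prdm16 lost its call without the filter (-1.36, adjusted p = 0.071), and neither Prdm16 nor Ebf3 could be tested at 30 reads. With a pseudocount of 1, which shrinks low genes, Prdm16 was at -0.83 and -0.54 at the 2 times and Ebf3 at -0.68 at 72 h. Over 43 gene results and 1160 values, 1075 kept direction and side of the threshold, 36 lost a call, 7 gained one, 34 turned sign and 8 moved without a test. The cause was not tested. With the replicate block, Ebf2 (-0.71, adjusted p = 0.079) and Ctbp2 (-0.74, adjusted p = 0.074) lost their 24 h calls and Zfp516 (0.69, adjusted p = 0.095) its 72 h call. Same-numbered replicates had a mean r of deviations of -0.07 at 24 h and 0.03 at 72 h, with 3 of 11 pairs over 0.1. So few values cannot settle whether the numbers pair the samples. The block gave 2874 calls over time in NC and 59 in the interaction. With 1 entry per symbol there were 2614, 2796, 1070, 1266 and 45 calls at 24 h, at 72 h, over time in NC, over time in KD and in the interaction. The interaction (main count 111) gave 774 without scaling, 196 and 239 with pseudocounts of 0.5 and 1, 184 with 24 libraries and 334 with the cluster. Leaving out 1 sample gave 9064 to 14168 calls at 24 h, 9761 to 12102 at 72 h, 3676 to 4802 over time in NC, 3722 to 6498 in KD and 53 to 179 in the interaction. Unscaled, 80.9% of 16268 calls at 72 h were higher against 46.4% scaled, 80.9% against 52.4% over time in KD, and 96.1% against 60.4% in the interaction.

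From the highest-mean entry, the exact permutation test of Ebf3 gave -2.02 (adjusted p = 0.052) and of Irf4 -0.231 (adjusted p = 0.18); leaving out a sample gave -0.535 to -0.3 and -0.166 to -0.105. Signs turned for values near 0: Tle3 at 24 h was 0.00 by voom and -0.03 to 0.15 without a sample. At 72 h Ctbp1 was 0.23 unscaled, 0.00 by voom and -0.1 to 0.04 without a sample, and Ctbp2 was 0.19 unscaled, 0.03 from its highest-mean entry and -0.22 to 0.04 without a sample. Over time in NC, Ctbp1 was -0.01 unscaled and with the replicate block, -0.03 by voom and -0.05 to 0.09 without a sample, and Ehmt1 -0.22 to 0.01 without a sample. Over time in KD, Ebf1 was -0.66 from its highest-mean entry, and Tle3 -0.05 to 0.15 without a sample. In the interaction, Ebf1 was -0.01 from that entry, and Tle3 -0.03 with 24 libraries, -0.01 with the cluster and -0.10 to 0.1 without a sample.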
